A study of Mus musculus with 4 samples.

Results

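Lysosome and cathepsin genes were followed in immune cells of mouse skin and of skin tumors. The group consists of 36 genes listed by symbol, which encode lysosomal proteases, glycosidases, lipid hydrolases, membrane proteins, cholesterol carriers and proton pump subunits. All 36 were found among the 31053 genes counted in each library. The libraries came from 2 control skins of uninoculated C57BL/6 mice and from 2 skin tumors that grew after cells of the 2323 line were injected into the flank of C57BL/6 mice. The 2323 line was derived from a mouse tumor in its escape phase, so both tumors represent 1 line. Recipients were female and male mice of 8 to 10 weeks, and tumors were taken about 2 weeks after injection. Genotype was C57/BL6 in all samples, the labels name no further treatment, and they do not say how many mice went into a sample. All samples were digested with collagenase IV and sorted as living CD45+ immune cells before droplet 3′ sequencing. The labels number 2 libraries in each group and do not tie them to separate mice, so every p-value measures only the spread between these libraries.

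Lysosomes are acidic compartments that break down proteins, glycans and lipids taken up from outside or from the cell itself. Cathepsins are their proteases, the vacuolar proton pump keeps them acidic, and the transcription factor Tfeb and its relatives bind a short palindromic element, named CLEAR, in front of many lysosomal genes. Macrophages are known for a large lysosomal apparatus, and dendritic cells use cathepsins to cut antigens and the invariant chain of MHC class II.

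The 4 libraries held 34893543 to 73904272 unique molecular identifiers (UMIs), each standing for 1 captured RNA molecule, in 14795 barcodes. With the study's stated quality limits applied here, 12848 cells passed. The study itself reported somewhat fewer cells after filtering in each library. Median depth was 10610 to 13362 UMIs per kept cell. Cells were assigned to 13 classes by marker genes, none of which is among the 36, and the classes are called macrophage-like, T-like and so on. A class was given to 8857 cells, and 3991 kept cells stayed in no class, among them 876 with at least 3 T cell and at least 3 macrophage markers. Markers of keratinocytes and fibroblasts, 7 genes in all, summed to at most 0.264 UMIs per 10,000 in macrophage-like cells. A barcode sequence was found in 2 libraries in 23 cases. Levels are UMIs of a gene per 10,000 UMIs of the class in a library. A 3′ library counts a molecule once whatever its length, so levels of different genes could be set side by side without a length correction.

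The promoters of the group were read to show what its members have in common in sequence. RefSeq promoters on GRCm38.p6, from 250 bases before to 50 bases after a start, were matched for 31 members, and Ctsb, Ctsh, Npc1, Atp6v0d2 and Asah1 had no entry in the table. The E-box CACGTG occurred in 10 of the 31 (32.3%) and in 8.09% of all 27025 genes of the table. Its longer form TCACGTGA, which contains the E-box, occurred in 5 of the 31 (16.1%) and in 1.12% of all genes. The full palindrome GTCACGTGAC occurred in 0 of the 31 and in 0.370% of all genes. Each of these words reads the same on both strands, so a search of 1 strand covers both. The windows with TCACGTGA in capitals are shown 5′ to 3′ on the gene's strand, with 11 bases on either side, because it is the longest of the 3 words that any member held. They are descriptions of sequence and say nothing of binding in these cells.
Ctsa, cathepsin A: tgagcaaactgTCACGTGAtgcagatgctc
Ctsd, cathepsin D: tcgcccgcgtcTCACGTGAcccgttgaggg
Mcoln1, the TRPML1 channel: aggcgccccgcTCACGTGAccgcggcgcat
Atp6v1a, proton pump subunit A: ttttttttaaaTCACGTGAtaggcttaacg
Gla, alpha-galactosidase A: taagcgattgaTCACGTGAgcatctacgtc

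On GRCm38 these windows lie at chr2:164833749-164833778 on the plus strand for Ctsa, chr7:142387908-142387937 on the minus strand for Ctsd, chr8:3500462-3500491 on the plus strand for Mcoln1, chr16:44139373-44139402 on the minus strand for Atp6v1a and chrX:134601215-134601244 on the minus strand for Gla. The word began 99 bases before the RefSeq start for Ctsd, 46 for Mcoln1, 132 for Atp6v1a, 228 for Gla and 13 for Ctsa. The promoters of Ctsa and Gla each held a further copy. By GENCODE vM21, the windows of Ctsa, Ctsd, Mcoln1 and Atp6v1a lie within the span of the gene. All 36 members are protein-coding genes in GENCODE vM21, spread over 17 chromosomes. Ctsk (chr3:95499256-95509362) and Ctss (chr3:95526786-95556403), both on the plus strand, are the closest pair, with 17423 bases between them.

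Over all kept cells of a library, the 36 members together took 41.4 and 58.2 UMIs per 10,000 in control skins, against 127 and 117 in tumors. Both tumor libraries were above both control libraries. The same libraries differed in which cells they held. Macrophage-like cells contributed 3.67% and 8.55% of the UMIs of kept cells in control skins, against 60.3% and 41.6% in tumors. Of the UMIs of the 36 members, macrophage-like cells held 13.5% and 23.8% in control skins, against 81.5% and 58.6% in tumors. Langerhans cell-like (LC-like) cells held 16.6% and 8.08% of the members' UMIs in control skins, and only 2 LC-like cells were gated in each tumor. Cells in no class held 46.7% and 48.5% of the members' UMIs in control skins, against 9.33% and 34.6% in tumors. When every library's class levels were combined at the mean class shares of the control skins, the summed level was 46.4 and 52.7 per 10,000 in control skins, against 57.8 and 65.3 in tumors. At the mean class shares of the tumors it was 102 and 111 in control skins, against 119 and 122 in tumors. Cells in no class, a mixture whose make-up was not fixed, supplied 20.8, 26.4, 30.7 and 40.0 of the level at control shares in the order control skin 1, control skin 2, tumor 1 and tumor 2. The gated classes supplied 25.6, 26.4, 27.1 and 25.4, in which tumors and control skins overlapped. For the tumors, the LC-like level used here came from only 2 cells each, at 55.3 and 33.8 per 10,000. It was weighted by the control share, and LC-like cells held 15.8% and 10.4% of UMIs in control skins. The summed level of tumors at control shares rests on the same cells. At tumor shares the gated classes supplied 87.6, 92.3, 97.1 and 93.7.

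**Figure D1:**
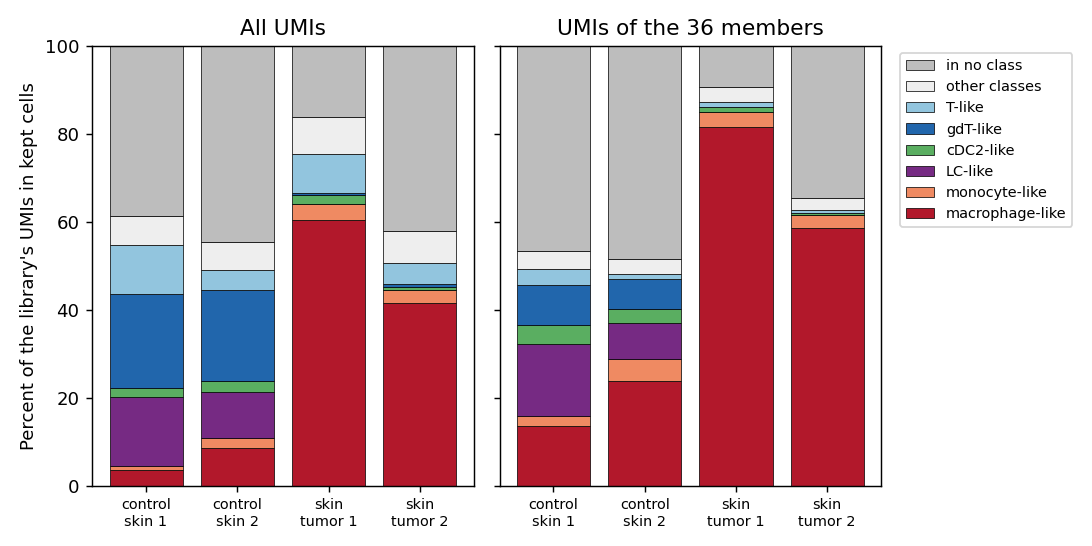
Stacked bars give, for each of the 4 libraries, the percent of UMIs of kept cells that fell in each gated class, for all genes (left) and for the 36 members (right). Macrophage-like cells, in dark red, held 13.5% and 23.8% of member UMIs in control skins, against 81.5% and 58.6% in tumors.

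Within most classes, the summed level was far less variable. Macrophage-like cells had the highest summed level, with 153 and 162 per 10,000 in control skins, against 172 and 165 in tumors. Macrophage-like cells without a monocyte marker, a subset chosen after seeing the data, had 122, 210, 203 and 197 in the same library order. Those with 2 or more of 5 monocyte markers had 176, 152, 149 and 149. Control skin 1 was therefore the lowest library in the former subset and the highest in the latter, and the difference of the group means, tumor minus control, was 34.0 in the former, -14.8 in the latter and 10.6 over all macrophage-like cells. Monocyte-like cells followed with 123, 122, 120 and 119, below all macrophage-like libraries. Conventional dendritic cells of type 1 (cDC1-like) had 85.8, 67.9, 77.8 and 69.8, and those of type 2 (cDC2-like) had 89.5, 76.0, 66.6 and 64.1. Mature dendritic cells (mDC-like) had 58.7, 76.2, 66.9 and 68.2, and neutrophil-like cells 56.5, 61.9, 64.4 and 67.7, and each of these 4 classes overlapped with its neighbour in this order. Mast-like cells had 41.0, 43.8, 53.7 and 53.9, and LC-like cells of control skin 43.3 and 45.1. Lymphoid cells were lowest. T-like cells had 14.1 and 14.1 in control skins, against 15.6 and 17.9 in tumors, regulatory T (Treg)-like cells 17.4, 19.1, 20.3 and 26.6, and natural killer (NK)-like cells 15.7, 13.7, 16.2 and 15.9. T-like libraries overlapped with those of both other classes, while the NK-like libraries all lay below the Treg-like ones.

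**Figure D2:**
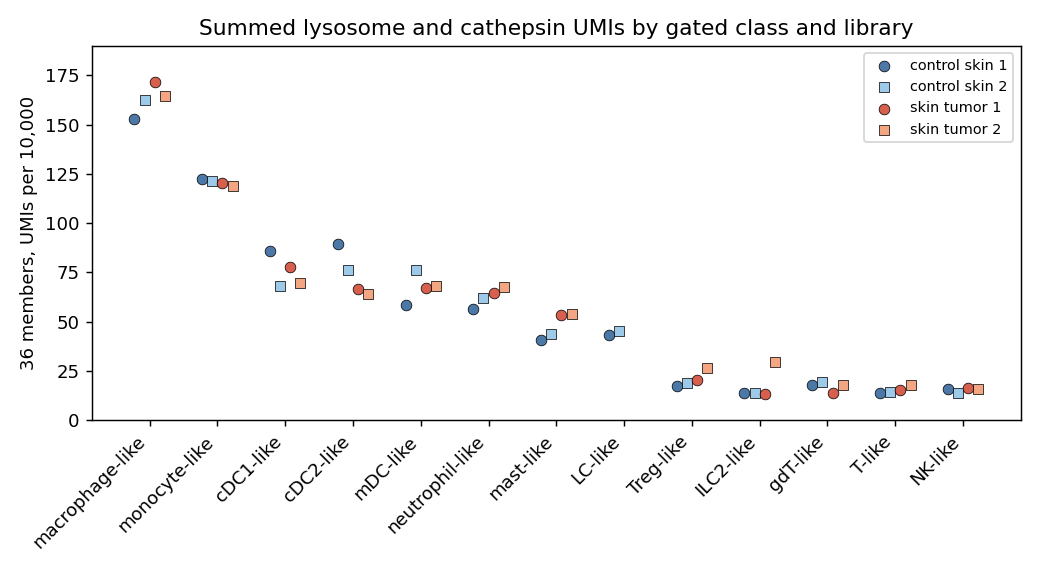
Points give the summed level of the 36 members, in UMIs per 10,000, in each gated class (horizontal axis) for each library. Macrophage-like libraries sit between 153 and 172 and T-like libraries between 14.1 and 17.9, and LC-like values are shown for the 2 control skins.

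Single macrophage-like cells differed more in control skin than in tumors. In control skins the 10th percentile, median and 90th percentile over cells were 75.8, 123 and 273 UMIs per 10,000 in 88 cells of control skin 1 and 74.9, 131 and 279 in 244 cells of control skin 2. In skin tumors they were 84.4, 158 and 242 in 2217 cells of tumor 1 and 96.9, 154 and 236 in 703 cells of tumor 2. Both medians were higher and both 90th percentiles were lower in the tumors. Median depth was 13831 and 13656 UMIs per macrophage-like cell in control skins, against 18297 and 18863 in tumors, and the part of depth in this spread was not tested.

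The 2 most abundant members in macrophage-like cells were cathepsins. Ctss, cathepsin S, which cuts the invariant chain of MHC class II, had 22.2, 21.0, 26.2 and 23.2 UMIs per 10,000 in macrophage-like cells in the order control skin 1, control skin 2, tumor 1 and tumor 2. It was above every monocyte-like library, which had 12.9 to 18.9. Ctsb, the cysteine protease cathepsin B, had 20.6, 27.9, 21.0 and 17.7 in macrophage-like cells, also above every monocyte-like library. The mean macrophage-like level was 26.0 times the T-like mean for Ctss and 18.9 times for Ctsb. Lgmn, the asparaginyl endopeptidase legumain, was at a mean of 9.94 ± 1.26 (SD, n = 4 libraries) in macrophage-like cells and did not overlap with any other class. Ctsk, cathepsin K, known best from osteoclasts, was the lowest protease in macrophage-like cells at 0.246 ± 0.183. Ctsd, the aspartic protease cathepsin D, was highest by mean in mast-like cells, at 8.67 ± 5.03. Neutrophil-like cells followed at 6.18 and macrophage-like cells at 5.01, with overlapping libraries. Mast-like libraries ran from 4.43 in control skin 1 to 15.1 in tumor 1, and neutrophil-like ones from 5.64 to 7.44. Both mast-like control skins lay below every neutrophil-like library and both mast-like tumors above, so the lead held in tumors only.

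The other proteases kept the same order in outline. Ctsc, which activates granule serine proteases, Ctsz, Ctsl, Ctsh and Ctsa had their highest mean in macrophage-like cells, at 9.03, 6.96, 3.95, 3.86 and 2.04 UMIs per 10,000, and each overlapped with the next class. Tpp1, a tripeptidyl peptidase, was highest in mast-like cells, with 1.74, 1.37, 1.28 and 0.806 against 0.522 to 0.789 in macrophage-like cells. Its mast-like libraries were all above its macrophage-like libraries.

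Glycosidases, which trim sugars from glycoproteins and glycolipids, had lower levels and several different leading classes. Hexa, a subunit of hexosaminidase, was highest in macrophage-like cells, with 2.74, 3.47, 2.66 and 2.67 UMIs per 10,000, and did not overlap with monocyte-like cells. Gla, alpha-galactosidase A, was highest in neutrophil-like cells, at 7.89, 4.73, 4.09 and 6.38, against 1.89 to 2.26 in monocyte-like cells. Neu1, a sialidase, was also highest in neutrophil-like cells, at 2.40, 1.73, 1.36 and 1.02, against 0.722 to 0.961 in monocyte-like cells. Neither gene's neutrophil-like libraries overlapped with another class. Man2b1, a lysosomal alpha-mannosidase, and Gusb, beta-glucuronidase, had their highest means in cDC1-like cells, at 2.57 and 1.27, and overlapped with macrophage-like cells. Control skin 1, control skin 2, tumor 1 and tumor 2 held 12, 15, 91 and 11 cDC1-like cells. Glb1, beta-galactosidase, had its highest mean in Treg-like cells, at 0.511 ± 0.274, and Gaa, the acid glucosidase that degrades glycogen, was the lowest glycosidase in macrophage-like cells at a mean of 0.133.

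Lipid hydrolases and their cofactors were led by Psap, the precursor of the saposins that present lipids to these enzymes. Psap had 22.4, 17.1, 24.9 and 22.8 UMIs per 10,000 in cDC1-like cells and 20.1, 18.0, 23.1 and 22.3 in macrophage-like cells, which overlapped. Gm2a, the GM2 activator, had its highest mean in cDC1-like cells at 7.19 ± 2.73. Lipa, the acid lipase that frees cholesterol from its esters, and Asah1, acid ceramidase, had their highest means in macrophage-like cells at 1.92 and 1.53. Galc, galactosylceramidase, and Smpd1, acid sphingomyelinase, were highest by mean in lymphoid classes, Galc in group 2 innate lymphoid (ILC2)-like cells at 0.772 ± 0.464 and Smpd1 in gamma delta T-like cells at 0.277 ± 0.131. Smpd1 was the lowest of these genes in macrophage-like cells, at a mean of 0.0436. The values of Galc and Smpd1 in these lymphoid classes rest on few UMIs in tumors. There 3 UMIs stood for 0.503 and 0.483 in ILC2-like and 0.101 and 0.153 in gamma delta T-like cells. The lowest library was at 0.161 for Galc and 0.101 for Smpd1.

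Npc2, which hands cholesterol to Npc1 for export, was highest in monocyte-like cells, with 14.1, 13.1, 13.2 and 14.6 UMIs per 10,000 against 10.6 to 11.5 in macrophage-like cells. The libraries of the 2 classes did not overlap. Npc1, the membrane partner, was at a mean of 1.23 in macrophage-like and 1.38 in monocyte-like cells. Among membrane proteins, Lamp2 was highest in neutrophil-like cells, at 12.8, 11.7, 10.4 and 8.49, above every monocyte-like library (4.87 to 6.15). Cd63, a tetraspanin of lysosomes and granules, was highest in mast-like cells, at 7.12, 10.5, 14.3 and 13.5, above every mDC-like library (4.13 to 6.26). Lamp1 led the membrane proteins of macrophage-like cells at a mean of 5.80, with Cd68, a macrophage-associated LAMP relative, at 3.58. Scarb2, the receptor that carries glucocerebrosidase to the lysosome, was highest by mean in NK-like cells at 1.26. Its lowest mean was in LC-like cells of control skin at 0.403, and its macrophage-like mean was 2.02 times the T-like mean.

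Grn, progranulin, which is cut to granulins in the lysosome, was highest in macrophage-like cells, with 2.86, 4.90, 5.56 and 4.26 UMIs per 10,000 against 1.89 to 2.75 in monocyte-like cells. Atp6v1a, the catalytic subunit of the proton pump, was at a mean of 3.72 in macrophage-like and 3.30 in neutrophil-like cells. Atp6v0d2, a membrane subunit of restricted expression, was detected mainly in mast-like cells at a mean of 0.715 and macrophage-like cells at 0.381. Its mast-like libraries ran from 0.158 to 1.21 and overlapped with macrophage-like ones. They rest on few UMIs, since 3 UMIs stood for 0.195 to 0.475 in mast-like cells. Atp6v0c, the proteolipid ring subunit, was at only 0.0592 in macrophage-like and 0.127 in monocyte-like cells. GENCODE lists pseudogene copies named after Atp6v0c on chromosomes 6 and 7 and after Cd63 on another chromosome, and how reads shared with a copy were counted is not stated, so these levels are uncertain. Mcoln1, the calcium channel TRPML1, was near 0.113 at its highest mean, in mDC-like cells, where 3 UMIs stood for 0.183 and 0.139 in the control skins. By mean, macrophage-like cells led for 16 of the 36 members, and 4 of these, Ctsb, Ctss, Lgmn and Hexa, did not overlap with any other class, while Grn overlapped with cDC1-like cells only.

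**Figure D3:**
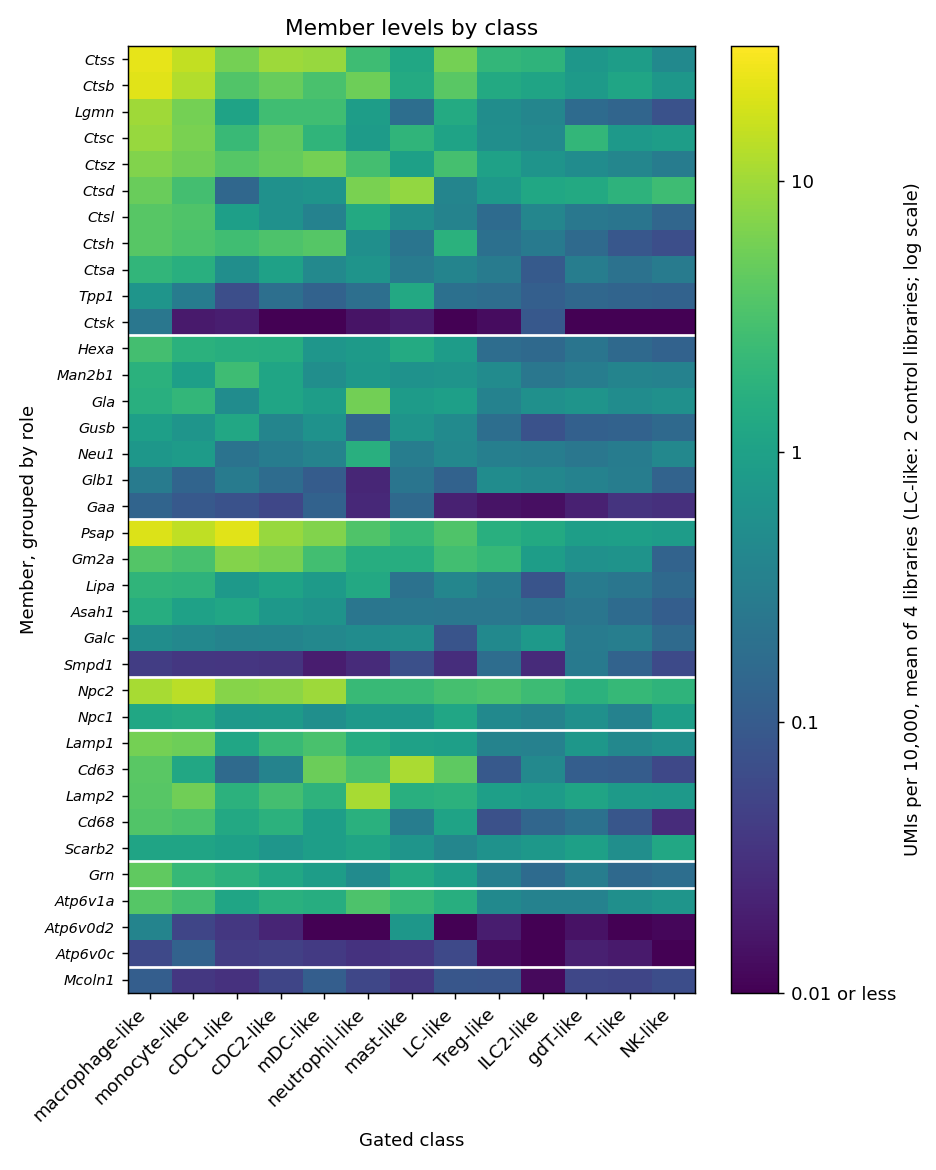
Color gives the mean level of each member (rows, grouped by role) in each gated class (columns), in UMIs per 10,000 on a log scale. Ctss and Ctsb have their highest means in macrophage-like cells (23.1 and 21.8), Lamp2 and Gla stand out in neutrophil-like cells and Cd63 in mast-like cells. Ctsd has its highest mean in mast-like cells, with libraries that overlap with those of neutrophil-like cells. In control skins its mast-like level was below every neutrophil-like library.

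The main comparison asked whether macrophage-like cells of tumors and of control skin differed in these genes. UMIs were summed per class and library and compared with edgeR's quasi-likelihood test, with p-values adjusted over all genes of the class and a threshold of 0.05. None of the 36 members passed in macrophage-like cells, while 0.507% of 12218 tested genes rose and 0.524% fell in tumors. Of the members, 7 had an unadjusted p under 0.05, as did 15.1% of all tested genes. DESeq2 called 3 members and 4.29% of all genes. The 3 members were Ctsc, which rose, and Cd68 and Atp6v0d2, which fell. Their adjusted p with DESeq2 was 0.0362, 0.00996 and 0.000952. The median log2 change of the 36 members was -0.01, against 0.03 over all tested genes, and 18 members had a positive change. With scaling by library totals alone, which matches the printed levels, these medians were 0.18 and 0.22, so both moved together with the scaling.

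Named by unadjusted p, 2 proteases of macrophage-like cells lay apart between groups. Ctsc had 6.24 and 6.22 UMIs per 10,000 in control skins, against 13.9 and 9.82 in tumors. Its log2 change was 0.74 ± 0.20 (SE; adjusted p = 0.158 with edgeR), and both tumors were above both control skins. Ctsk had 0.395 and 0.393 in control skins, against 0.0183 and 0.176 in tumors, a log2 change of -2.21 ± 0.91 (adjusted p = 0.322 with edgeR), and the 2 tumors differed more from each other than the control skins did.

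The remaining 5 members with an unadjusted p under 0.05 were all lower in tumors. Cd68 had 4.17 and 4.34 UMIs per 10,000 in control skins, against 3.02 and 2.78 in tumors, a log2 change of -0.73 ± 0.17 (adjusted p = 0.111 with edgeR). Lipa had 2.56 and 2.17 against 1.25 and 1.71, a change of -0.84 ± 0.23 (adjusted p = 0.158 with edgeR). Atp6v0d2 had 0.475 and 0.773 against 0.0664 and 0.210, a change of -2.38 ± 0.57 (adjusted p = 0.120 with edgeR). For each of these genes the tumor libraries lay below both control libraries. Atp6v1a had 4.41 and 4.04 against 2.77 and 3.67, and Mcoln1 had 0.127 and 0.140 against 0.0937 and 0.0873. Their adjusted p with edgeR was 0.302 and 0.261.

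Changes of the abundant members were smaller than those above. Ctss changed by 0.02 ± 0.19, Psap by 0.08 ± 0.19 and Npc2 by -0.17 ± 0.19 on the log2 scale, while Ctsb changed by -0.51 ± 0.23 (adjusted p = 0.372 with edgeR) with overlapping libraries. For Ctss and Psap both tumors were above both control skins in level. None of these differences was shown to be absent. In this class 65.0% of genes given a simulated log2 change of 2 were called, and changes as small as these were not simulated. The summed level of 8 dissociation-associated genes such as Fos and Jun was 59.4 and 62.6 per 10,000 in macrophage-like cells of control skin and 78.9 and 76.0 in those of tumors, and its part in these values was not tested. Without tumor 2, 6 members passed in macrophage-like cells (Ctsk, Atp6v0d2, Ctsc, Ctsd, Atp6v1a and Lipa), and without tumor 1, 2 passed (Ctsk and Atp6v0d2). Of all genes, 9.34% and 4.2% passed in these 2 fits.

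**Figure D4:**
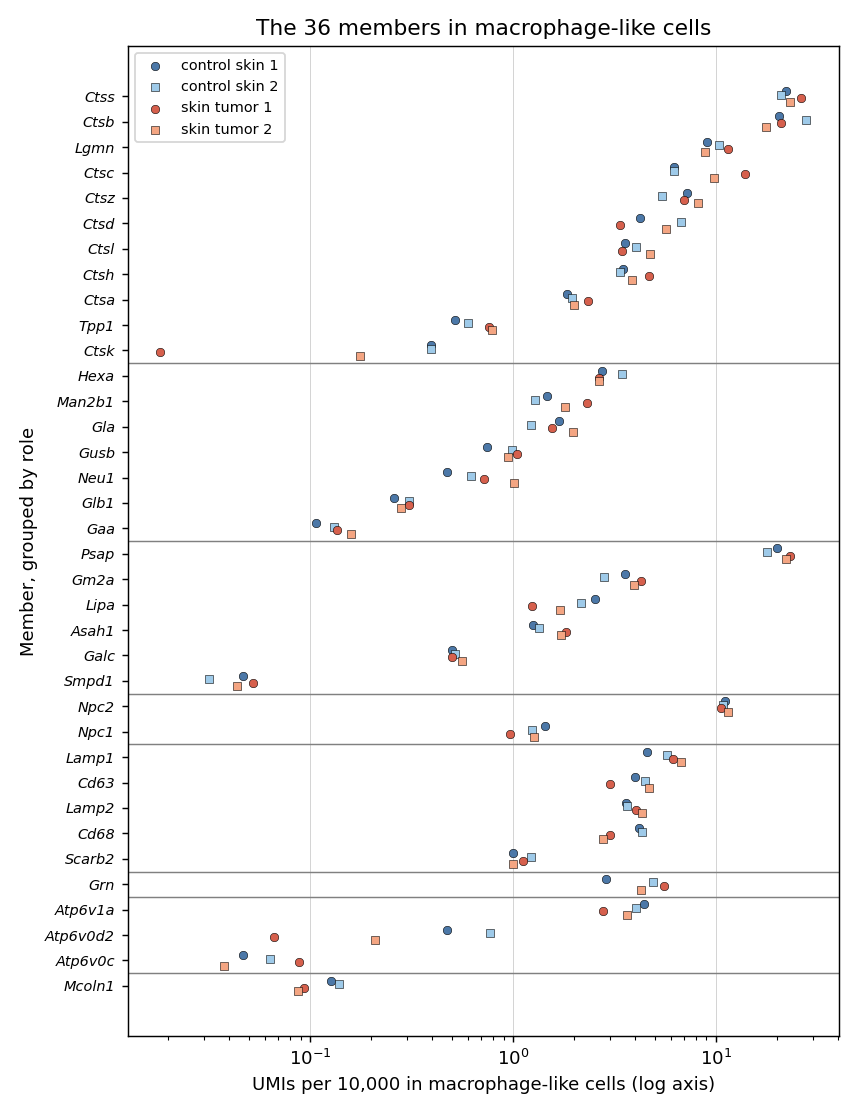
Points give the level of each member in macrophage-like cells, in UMIs per 10,000 on a log axis, for each library. Ctsc lies to the right in tumors (13.9 and 9.82 against 6.24 and 6.22), and Ctsk, Atp6v0d2, Lipa and Cd68 lie to the left. No member passed the adjusted threshold in edgeR, while DESeq2 called Ctsc, Cd68 and Atp6v0d2.

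In monocyte-like cells 32 members were tested and none passed, with 4 at an unadjusted p under 0.05 in edgeR (9.17% of all genes) and 0 called by DESeq2, while 0.309% of all tested genes rose and 0.0422% fell. The median change of the members was -0.11, against 0.02 over all genes. Ctsc had 4.13 and 4.75 UMIs per 10,000 in control skins, against 8.78 and 7.32 in tumors, a log2 change of 0.79 ± 0.23 (adjusted p = 0.288 with edgeR). Both tumors were again above both control skins. Hexa had 2.13 and 2.07 against 1.35 and 1.22, with an adjusted p of 0.335 in edgeR.

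In cDC2-like cells 30 members were tested and none passed in edgeR, while DESeq2 called 2, Ctsb and Lipa, both lower in tumors, and 3.52% of all genes. Of all genes, 0.296% rose and 0.915% fell. The members' median log2 change was -0.57, against 0.06 over all tested genes, and 12 members had an unadjusted p under 0.05, as did 22.4% of all genes. With library totals alone these medians were -0.32 and 0.32. Ctsb had 8.05 and 5.61 UMIs per 10,000 in control skins, against 3.24 and 2.73 in tumors, a log2 change of -1.42 ± 0.28 (adjusted p = 0.0680 with edgeR). Lipa had 2.12 and 1.17 against 0.510 and 0.499, and Npc1 had 1.31 and 1.02 against 0.435 and 0.422. Npc2, its partner, had 11.4 and 9.91 against 4.16 and 6.07, and Hexa had 2.47 and 1.65 against 1.14 and 0.729. For all 5 genes both tumors lay below both control skins, and their adjusted p in edgeR ran from 0.065 to 0.096. Ctsh went the other way, with 2.06 and 2.30 against 5.26 and 3.65 (adjusted p = 0.151 with edgeR).

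Other measures moved with these cDC2-like values. The 7 cDC2 markers summed to 28.7 and 25.2 UMIs per 10,000 in control skins, against 16.5 and 16.4 in tumors, and the 8 macrophage markers to 11.7 and 10.4 against 3.50 and 4.68. The 8 dissociation-associated genes summed to 43.9 and 37.1 against 80.0 and 132. Only 18 cDC2-like cells came from tumor 2, and without it 16 members passed, 15 of them lower in tumors, while 25.8% of all genes passed. Without tumor 1, 3 passed (Ctss, Ctsb and Npc2), while 3.94% of all genes did. The part of gating, dissociation and cell number in these values was not tested.

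The rarer myeloid classes gave few differences. In cDC1-like cells none of 25 members passed in edgeR or DESeq2, with 5 at an unadjusted p under 0.05 (16.2% of all genes), while 0.0233% of all genes rose and 0% fell. Npc1 had 1.28 and 1.28 UMIs per 10,000 in cDC1-like cells of control skin and 0.360 and 0.231 in those of tumors (adjusted p = 0.091 with edgeR). These values rest on 12, 15, 91 and 11 cells in the order control skin 1, control skin 2, tumor 1 and tumor 2. In mDC-like cells none of 28 members passed in either tool, with 3 at an unadjusted p under 0.05 (12.2% of all genes), while 0% of all genes rose and 0% fell. In neutrophil-like cells none of 26 members passed in either tool, with 1 at an unadjusted p under 0.05 (7.62% of all genes), while 0.223% of all genes rose and 0.0279% fell. That member was Ctss, with 0.282 and 2.37 against 3.89 and 3.72 (adjusted p = 0.623 with edgeR). Control skin 1 had only 15 cells, and its Ctss level lay below 0.423, the level of 3 UMIs there. The fit without control skin 2 rests on this library as the only control. It gave log2 changes of 3.68 for Ctss and 8.29 for Ctsc, both higher in tumors. Without control skin 2, Ctss and Ctsc passed in neutrophil-like cells, where 1.22% of all genes did. Without control skin 1, Ctsd passed in mDC-like cells, lower in tumors, where 2.51% of all genes did. Lamp2, the leading member of neutrophil-like cells, changed by -0.44 ± 0.26 (adjusted p = 0.715 with edgeR).

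In mast-like cells, which were 16 to 37 per library, 1 of 20 tested members rose and 0 fell, while 2.17% of all tested genes rose and 1.49% fell. At an unadjusted p under 0.05 there were 3 members and 17.7% of all genes. Ctsd (chr7:142375911-142388038, minus strand) had 4.43 and 4.88 UMIs per 10,000 in control skins, against 15.1 and 10.3 in tumors. Its log2 change was 1.74 ± 0.40 (adjusted p = 0.0475 with edgeR), and both tumors were above both control skins. DESeq2 gave an adjusted p of 0.0515. With library totals alone the median change of all mast-like genes moved from 0.05 to -0.26 and Ctsd no longer passed. Without either control skin no member passed. Without tumor 1, 3 members and 7.93% of all genes passed, and without tumor 2, 3 members and 9.18% of all genes did. Ctsd did not pass either with the stricter gate, with all barcodes or with cells thinned to 1000 UMIs. In the fits without a control skin, fewer genes of the class passed than with all 4 libraries, so those fits do not single out Ctsd. Over 14 settings, each library left out among them, its log2 change ran from 1.31 to 2.14. The 6 genes used as a sign of free myeloid RNA, such as Lyz2 and Apoe, summed to 50.3 and 25.1 in mast-like cells of control skin and 8.06 and 21.8 in those of tumors.

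Of 32 members tested in T-like cells (174 to 560 per library) 2 rose and 2 fell, while 4.39% of all tested genes rose and 6.46% fell, so the share of members past the threshold was near that of genes in general. At an unadjusted p under 0.05 there were 9 members and 28.4% of all genes. The members' median log2 change was 0.21, against 0.04 over all genes. Ctsb (chr14:63122462-63145923, plus strand) had 0.611 and 0.664 UMIs per 10,000 in control skins, against 1.53 and 1.81 in tumors, a log2 change of 1.25 ± 0.18 (adjusted p = 0.0098 with edgeR). Ctss had 0.642 and 0.649 against 1.08 and 1.19, a change of 0.67 ± 0.16 (adjusted p = 0.0494 with edgeR). Both proteases were higher in both tumors than in either control skin.

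Both members that fell act on glycolipids. Galc (chr12:98202294-98259459, minus strand) had 0.462 and 0.492 UMIs per 10,000 in T-like cells of control skin and 0.164 and 0.122 in those of tumors, a log2 change of -1.83 ± 0.23 (adjusted p = 0.0067 with edgeR). Gm2a (chr11:55098115-55113029, plus strand) had 0.670 and 0.855 against 0.443 and 0.519, a change of -0.81 ± 0.20 (adjusted p = 0.0486 with edgeR). No tumor library of either gene reached a control library. Ctsb and Galc were also called by DESeq2, which called 9.62% of all genes and gave an adjusted p of 0.185 for Ctss and 0.105 for Gm2a. Leaving out either control skin left no member past the threshold, leaving out tumor 1 gave 12 of 32 (20.4% of all genes) and leaving out tumor 2 gave 8 of 34 (31.4% of all genes). Ctsd had 1.51 and 1.32 against 2.15 and 2.44 (adjusted p = 0.107 with edgeR), and Lamp1 had 0.509 and 0.511 against 0.380 and 0.318 (adjusted p = 0.0720 with edgeR). In the fits without a control skin no other gene passed either, so these fits do not single out the members. Over 17 settings the log2 change ran from 0.97 to 1.48 for Ctsb and from 0.58 to 1.05 for Ctss. It ran from -2.65 to -1.32 for Galc and from -0.95 to 0.0046 for Gm2a.

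The 8 macrophage markers summed to 0.259 and 0.374 UMIs per 10,000 in T-like cells of control skin and 0.618 and 0.763 in those of tumors, against 54.3 to 93.6 in macrophage-like cells. The 6 free-RNA genes summed to 3.06 and 5.78 against 3.37 and 8.30. Among T-like cells without a UMI of Lyz2, Apoe or the C1q genes, Ctsb rose by 1.40, Ctss by 1.05 and Galc fell by 1.71 on the log2 scale, each past the threshold in edgeR, as were 7.24% of all genes. Among T-like cells with Cd8a and no Cd4, Ctsb (0.97) and Galc (-1.32) passed, and among those with Cd4 and no Cd8a, Ctsb (1.47), Ctss (0.84), Ctsd (1.06), Asah1 (2.28) and Galc (-1.58) did. Of all genes, 10.8% passed in the Cd8a subset and 8.57% in the Cd4 subset. Gm2a passed in none of these 3 subsets, and its log2 change was 0.00 with Cd4 and no Cd8a. The dissociation-associated genes summed to 36.03 and 27.0 in T-like cells of control skin and 51.3 and 59.5 in those of tumors, and their part was not tested.

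In Treg-like cells 1 of 29 tested members rose and 0 fell, while 2.67% of all tested genes rose and 1.93% fell. At an unadjusted p under 0.05 there were 10 members and 19.6% of all genes. Ctsz, cathepsin Z (chr2:174427493-174439039, minus strand), had 0.475 and 0.609 UMIs per 10,000 in control skins, against 1.31 and 1.59 in tumors. Its log2 change was 1.44 ± 0.27 (adjusted p = 0.0153 with edgeR and 0.0707 with DESeq2), and both tumors were above both control skins. Psap had 0.582 and 0.731 against 0.918 and 4.25 (adjusted p = 0.094 with edgeR), and tumor 2 lay far above the other libraries. Without tumor 2, Ctsz alone passed, and without control skin 1, control skin 2 and tumor 1 in turn 2, 2 and 3 members did. Of all genes, 7.43%, 4.63%, 6.13% and 6.03% passed in these fits. In tumor 2 the free-RNA genes summed to 23.2, against 3.34 and 3.62 in the control skins and 7.56 in tumor 1. Treg-like cells without a UMI of Lyz2, Apoe or the C1q genes were too few to fit. The part of free RNA in the values of Ctsz and Psap was therefore not tested. In NK-like cells none of 16 tested members passed in edgeR or DESeq2, and 0 had an unadjusted p under 0.05 (12% of all genes), while 0.0912% of all genes rose and 0.146% fell.

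**Figure D5:**
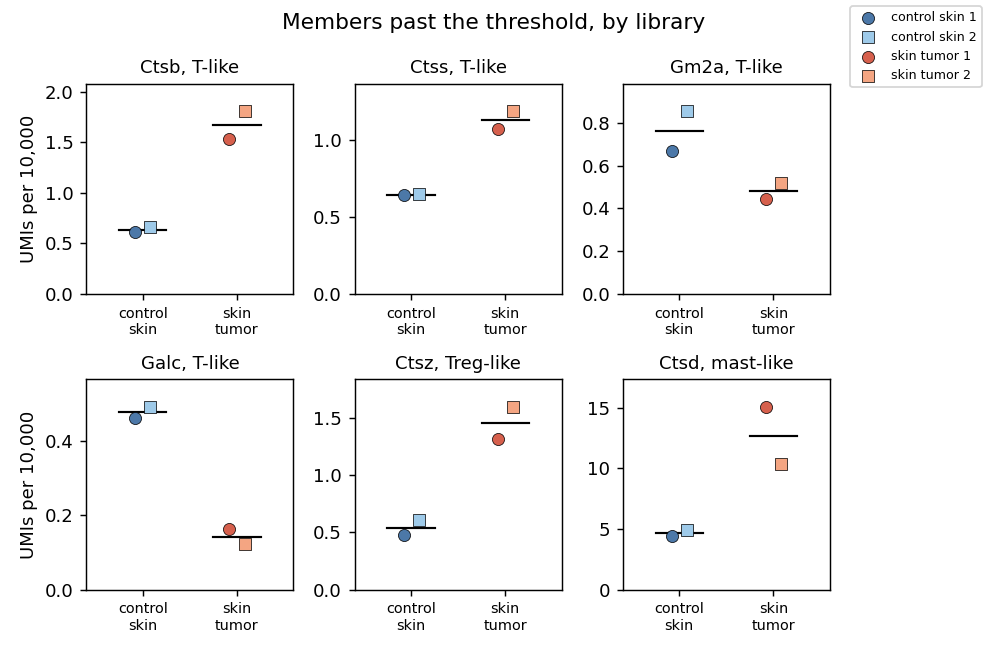
Each panel gives the level of a member that passed the adjusted threshold, in UMIs per 10,000 of its class, for 2 control skins and 2 skin tumors, with a line at each group mean. In every panel the tumor points lie on 1 side of both control points, as for Galc in T-like cells with 0.164 and 0.122 against 0.462 and 0.492.

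Whether a member changed differently in macrophage-like cells than in another class was tested as an interaction of class and group, with the library as a block. Against T-like cells 2 of 36 members passed, while 2.6% of all tested genes did. At an unadjusted p under 0.05 there were 14 members and 15.9% of all genes. The change of Ctsb was lower in macrophage-like than in T-like cells by 1.70 ± 0.25 on the log2 scale (adjusted p = 0.0176 with edgeR). The change of Galc was higher in macrophage-like than in T-like cells by 1.72 ± 0.31 (adjusted p = 0.0315 with edgeR). Over 7 settings, each library left out among them, the difference ran from -1.94 to -1.46 for Ctsb and from 1.37 to 2.17 for Galc. In macrophage-like cells Galc had 0.502, 0.517, 0.502 and 0.565, so its level there hardly varied between libraries.

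The other pairs gave no member past the threshold in edgeR, the only tool used for the interaction. Against cDC2-like cells 16 of 34 members had an unadjusted p under 0.05, as did 13.5% of all genes. The lowest adjusted p of a member was 0.0565, and 0.94% of all genes passed after adjustment. Against monocyte-like cells 2 of 36 members and 9.27% of all genes had an unadjusted p under 0.05, and 0.0303% of all genes passed after adjustment. Against neutrophil-like cells these were 5 of 34 members and 7.77% of all genes, and 0.858% of all genes passed after adjustment. Without tumor 2, 10 members passed against cDC2-like cells (7.88% of all genes), and without tumor 1, 3 did (2.72%). Without control skin 2, 6 members passed against neutrophil-like cells (4.54% of all genes), 2 against cDC2-like cells (1.75%) and 1 against monocyte-like cells (2.98%).

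A further 86 genes of the same pathway, in 7 lists, were read beside the 36. In macrophage-like cells 79 were tested and none passed in edgeR, with 15 at an unadjusted p under 0.05 (15.1% of all genes). DESeq2 called 6 (4.29% of all genes), among them Tfec, Gpnmb, Acp5, Arsb and Ctsw. Among the 4 MiT transcription factors, which include Tfeb, Tfec had 0.0602 and 0.100 UMIs per 10,000 in control skins, against 0.288 and 0.324 in tumors, a log2 change of 1.67 ± 0.31 (adjusted p = 0.0694 with edgeR). Gpnmb, a transmembrane protein of the endolysosome, had 1.91 and 4.21 against 0.149 and 0.515, a change of -3.38 ± 0.67 (adjusted p = 0.0763 with edgeR). The other V-ATPase subunits summed to 22.4, 22.2, 21.5 and 25.1 and so varied little, and Cst3, the cathepsin inhibitor cystatin C, had 17.4 and 17.0 against 13.8 and 13.5 (adjusted p = 0.262 with edgeR).

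In T-like cells 4 of 69 tested pathway genes rose and 2 fell, shares near or below the 4.39% and 6.46% of all genes. DESeq2 also called 6, which did not include Flcn, and 9.62% of all genes. Those that rose were Arsb, arylsulfatase B, at 2.31 ± 0.41, Lyst, which governs lysosome size, at 1.53 ± 0.25, Lamtor4 of the mTORC1 scaffold at 1.27 ± 0.23, and Cst7, cystatin F, at 1.14 ± 0.28 on the log2 scale. Those that fell were Ctsw, a cathepsin of cytotoxic lymphocytes, at -1.35 ± 0.29, and Flcn, folliculin, at -1.19 ± 0.26. Arsb also rose in Treg-like cells and was the single pathway gene to pass in NK-like cells, where it had 0.614 and 0.914 UMIs per 10,000 in control skins, against 3.03 and 3.41 in tumors (adjusted p = 0.0345 with edgeR). There 44 pathway genes were tested, and 0.0912% of all genes rose. In Treg-like cells 2 of 53 rose (Arsb and Cst3) and 1 fell (Atp6v0a1), near the 2.67% and 1.93% of all genes. DESeq2 called 0 of them in Treg-like cells and 2.32% of all genes. Cst3 had 1.29 and 1.43 against 2.59 and 20.2, with tumor 2 again apart. In cDC2-like cells 1 of 61 fell, Slc15a3, a peptide transporter, with 3.29 and 2.74 against 0.850 and 0.806. In that class 0.296% of all genes rose and 0.915% fell. None passed in monocyte-like, cDC1-like, mDC-like, neutrophil-like or mast-like cells in edgeR. In that order 4 of 62, 6 of 45, 7 of 44, 3 of 40 and 4 of 32 had an unadjusted p under 0.05. So did 9.17%, 16.2%, 12.2%, 7.62% and 17.7% of all genes. DESeq2 called 0, 1, 2, 0 and 0, and 0.745%, 1.73%, 1.11%, 0.335% and 2.6% of all genes.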

How the data were processed

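CD45+ cells of 2 control skins and 2 skin tumors were sequenced with 1 droplet 3′ library each. The deposited values are whole-number UMI counts for every gene in every barcode, which the authors made with Cell Ranger on mm10 (version 7.1.0 in the submitters' notes, 7.0.1 in the file headers). Whether intronic reads were counted is not stated in the sources used here. The study's later normalization, integration and doublet removal were not part of these counts.

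Cells with at least 100 genes, 1000 UMIs, at most 15% mitochondrial UMIs and a log10 ratio of genes to UMIs of at least 0.8 were kept. Classes were gated on markers. Cells with 3 or more T cell markers got no myeloid class. Those with 3 or more macrophage, LC, neutrophil or mast cell markers got no lymphoid class. Not every pair of lineages was checked this way, so the gates stood in only in part for doublet removal. The minimum markers per class were set after marker detection had been seen and before member values were. The 36 members and all lists were chosen with earlier results of these data known. UMIs were summed per class and library, and classes were tested only with at least 10 cells in each library. Gamma delta T-like and ILC2-like cells met this limit, with at least 24 and 15 cells, but were not tested. The test was that of edgeR 4.0.16 (TMM, filterByExpr, quasi-likelihood, R 4.3.3) with Benjamini-Hochberg adjustment over all genes of a class. The SE is the absolute log2 change over the square root of F. Levels are sums over a class, and counting error is part of their spread between libraries. All members were accounted for. By rule, the text named the members past the threshold in a class whose tumor libraries both lay on the same side of both control libraries and, for levels, the highest and lowest member of each role in macrophage-like cells. Members and pathway genes named without passing, and pathway genes that passed in classes other than macrophage-like, were chosen after their values were seen. An exact permutation test of 2 against 2 libraries cannot go below 0.333 and was not used.

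Alternatives were DESeq2 1.42.0, no filter, RLE factors, each library left out, the replicate number as a block, a stricter gate, all barcodes, no top 5% of cells by UMIs and thinning to 1000 UMIs. Subsets of macrophage-like and T-like cells and scaling by library totals alone were added after the data had been seen. The fits were tested on simulated data. Of 200 genes given a log2 change of 2, the share called with the right sign was 41.5% in mDC-like cells (4219 genes) and 88.5% in Treg-like cells (6670 genes), the lowest and highest of 10 classes. Coordinates come from GENCODE vM21 (GRCm38), where 30934 of 31053 gene identifiers were found. The full genotype behind the injected line and the values of a pathway gene are not reported here.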

Additional observations from a re-analysis of the deposited data

Results flagged for a closer look

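For 2 members the change between control skin and tumor differed between macrophage-like and T-like cells by the test of the difference itself. The log2 change of Ctsb in macrophage-like minus T-like cells was -1.70, with 20.6, 27.9, 21.0 and 17.7 UMIs per 10,000 in macrophage-like and 0.611, 0.664, 1.53 and 1.81 in T-like cells in the order control skin 1, control skin 2, tumor 1 and tumor 2. That of Galc was 1.72, with 0.502, 0.517, 0.502 and 0.565 in macrophage-like and 0.462, 0.492, 0.164 and 0.122 in T-like cells. Over 7 settings of this test, Ctsb passed in 5 and Galc in 4, with differences of -1.94 to -1.46 for Ctsb and 1.37 to 2.17 for Galc and adjusted p-values of up to 0.173 and 0.179.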

How the results depend on the processing

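Leaving out each library in turn, so that the lone library of a group was assumed to vary like the others, gave 0 to 6 members past the threshold in macrophage-like, 0 to 16 in cDC2-like, 0 to 1 in mDC-like, 0 to 2 in neutrophil-like, 0 to 3 in mast-like, 0 to 12 in T-like and 1 to 3 in Treg-like cells, and 0 in monocyte-like, cDC1-like and NK-like cells. For the difference from macrophage-like cells, how many members passed also depended on which library was left out, in every pair tested. The number of all genes that passed varied as well, so these counts are not read as results about the members. With DESeq2, 3 members passed in macrophage-like, 2 in cDC2-like, 2 in T-like, 0 in mast-like and 0 in Treg-like cells. It called 4.29%, 3.52%, 9.62%, 2.6% and 2.32% of all genes there. Without the filter on low counts 5 passed in macrophage-like, 8 in cDC2-like, 2 in cDC1-like and 1 in monocyte-like cells. In these fits 5.16%, 7.18%, 2.41% and 1.36% of all genes passed. The replicate block gave 3 in macrophage-like (Ctsk, Atp6v0d2 and Lipa, all lower in tumors), 2 in Treg-like (Ctsz and Psap) and 0 in mast-like cells. In T-like cells Ctss was lost under the block (adjusted p = 0.0608 with edgeR). Shares of all genes under the block were 5.05%, 5.4%, 0% and 12.8% in these classes, in order. Ctss in T-like cells passed in 10 of 17 settings, with adjusted p-values of 0.00233 to 0.365. The block changed no other call of a member. The labels share only a number, and same-numbered libraries correlated at -0.0877 to 0.121 in their deviations from the group means, so the numbers were not read as pairs. With the stricter gate 1 passed in cDC2-like (3.18% of all genes) and 0 in mast-like cells (2.06%). With this gate 1 member differed from macrophage-like cells both for cDC2-like and for T-like cells. Of all genes, 104 of 9022 and 240 of 11800 did so, in that order. All barcodes gave 1 in cDC2-like (1.98% of all genes) and 0 in mast-like cells (3.37%). Cells without the top 5% by UMIs gave 1 in cDC2-like (2.15%) and 2 in Treg-like cells (4.01%). Thinning to 1000 UMIs gave 3 of 13 members in cDC2-like (11.1% of all genes), 0 of 2 in mast-like (14.4%) and 0 of 2 in Treg-like cells (2.5%). Chosen after seeing the data, T-like cells with Cd8a only gave 2 (10.8% of all genes), and library totals alone gave 0 in mast-like cells (2.34%). In T-like cells the log2 change of Gla turned to 0.010 with the stricter gate, 0.10 with Cd8a only and 0.052 with Cd4 only, and that of Gm2a to 0.0046 with Cd4 only. The cause was not tested. Of the counts of members under an alternative, 106 stayed within 1.5 times of the reported one and 50 did not. A reported count of 0 that stayed 0 was among the former, and most of the 106 were of this kind. Where the reported count was above 0, more counts moved than stayed. The stricter gate in cDC1-like and mDC-like cells and the removal of the top 5% in mDC-like cells were not run, because too few cells were left. For the same reason, cells without a UMI of Lyz2, Apoe or the C1q genes were not fitted in Treg-like, NK-like and mast-like cells.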
